A study of Mus musculus with 15 samples.

Results

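Aquaporins are membrane channels that let water, and for some members glycerol or hydrogen peroxide, cross lipid membranes down their gradients. The 6 genes described here are Aqp1, Aqp3, Aqp4, Aqp7, Aqp8 and Aqp11, and every probe set whose annotation gives 1 of these symbols alone was taken. This gave 14 probe sets of 34958 with 1 symbol, for 6 of 18194 genes. Male C57BL/6 mice aged 11 weeks gave the colon scrapings, and each mouse had its own array. For 14 days both groups ate a Westernized diet low in calcium and high in fat (40% of energy), and the heme group (9 mice) also received 0.5 umol heme per g of diet, whereas the control group (6 mice) received none. Heme, the pigment that colours red meat, was the one difference between the diets. Control replicate 5 was not analysed here. A scraping holds epithelium together with some of the tissue beneath it, so it mixes cell types.

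The family works in parallel routes through the colon epithelium. Aqp8 is a water channel of absorptive colonocytes that also passes ammonia and hydrogen peroxide. Aqp4 is a water-selective channel on the basolateral side of surface colonocytes, better known from the end feet of astrocytes. Aqp3 and Aqp7 are aquaglyceroporins, which pass glycerol as well as water, Aqp3 in the basolateral membrane of epithelia and Aqp7 above all in fat cells. Aqp1 is the water channel of red blood cells and many capillary endothelia, and Aqp11 is an unorthodox member of the endoplasmic reticulum. Absorbing water from the stool is one of the main tasks of the colon.

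Of the 6 genes, Aqp3, Aqp8 and Aqp4 were higher in heme mice, Aqp1 was lower, Aqp11 was not called and Aqp7 lay under the signal floor in every mouse. The floor is a signal of 20, or 4.32 on the log2 scale, and a gene was tested where at least 6 arrays lay over it. Called means an adjusted p under 0.05 in limma across all 9257 tested genes. Of all tested genes 53.6% were called, 27.2% as higher and 26.4% as lower, so a call by itself does not set a member apart from other genes. Aqp3 passed the filter through its heme arrays alone. Of the members' 14 probe sets 10 were tested, and 7 of these were called higher and 1 lower, where 50.4% of all tested probe sets were called. The probe sets of 1 gene share a transcript and are not independent, and those of Aqp3 passed through their heme arrays. The groups did not overlap for Aqp3 and Aqp8, both higher in heme mice, as for 11.2% of all tested genes in that direction and 8.93% in the other.

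The stretch of 250 bases before the start of transcription is shown for the called members that RefSeq's promoter table lists (build GRCm38.p6). That table lists 5 of the 6 genes. They are given so that the genes with the firmest change, Aqp3 and Aqp8, can be set beside Aqp1, which changed the other way. Capitals mark the motifs found. The 6 motifs searched on both strands were the TATA box TATAAA, the GC box GGGCGG, the E-box CACGTG, the nuclear receptor motif AGGTCA, the antioxidant response element core TGACNNNGC and the caudal (Cdx) motif TTTATNG. No 2 matches overlapped in these stretches. The Aqp3 stretch (chr4:41098184-41098433, minus strand) holds a TATA box 29 bases before the start, a motif in 12.4% of the 32851 promoters searched, and a GC box on the opposite strand, a motif in 32.7%. The Aqp8 stretch (chr7:123462044-123462293, plus strand) holds 1 E-box, a motif in 6.02%, and the Aqp1 stretch (chr6:55336049-55336298, plus strand) 1 GC box. The nuclear receptor motif (14.0% of promoters), the antioxidant core (10.2%) and the Cdx motif (9.81%) had no match in these 3 windows. A match or its lack is a description of these letters and says nothing about binding.
Aqp3: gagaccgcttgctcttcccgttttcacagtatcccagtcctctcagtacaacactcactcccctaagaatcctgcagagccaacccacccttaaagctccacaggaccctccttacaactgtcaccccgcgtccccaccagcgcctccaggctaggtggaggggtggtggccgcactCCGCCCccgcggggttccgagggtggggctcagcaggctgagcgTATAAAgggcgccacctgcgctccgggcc
Aqp8: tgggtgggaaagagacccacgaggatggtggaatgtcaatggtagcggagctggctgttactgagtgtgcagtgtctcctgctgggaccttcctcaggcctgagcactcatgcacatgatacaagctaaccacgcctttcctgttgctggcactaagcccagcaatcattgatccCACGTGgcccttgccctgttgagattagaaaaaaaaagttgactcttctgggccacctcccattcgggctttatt
Aqp1: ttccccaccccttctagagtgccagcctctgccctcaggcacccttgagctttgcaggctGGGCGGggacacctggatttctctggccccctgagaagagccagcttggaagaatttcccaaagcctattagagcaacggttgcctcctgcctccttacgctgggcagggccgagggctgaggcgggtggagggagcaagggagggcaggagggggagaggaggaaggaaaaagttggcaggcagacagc

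Aqp3, the channel for water and glycerol, changed most. At its brightest probe set (1450460_at) the control mice ran from 3.07 to 4.09 with a median of 3.75 on the log2 scale, all under the floor. The heme mice ran from 5.99 to 7.24 with a median of 6.83, so the lowest heme mouse lay above the highest control. With the controls set at the floor, Aqp3 was at least 5.39-fold higher in heme mice, a bound that was not itself tested. The measured means were 3.67 ± 0.37 (SD, n = 6) and 6.75 ± 0.39 (SD, n = 9). The fitted difference of 3.08 ± 0.19 (SE, adjusted p = 1.08e-08, limma) is set partly against background.

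The other probe sets of Aqp3 bear on how far its size can be trusted. 1422008_a_at was under the floor in all controls (1.93 to 3.21) and over it in all heme mice (4.74 to 6.13), at least 2.37-fold higher. 1422007_at was also under the floor in all controls (2.81 to 3.52) and over it in 7 of 9 heme mice, with 4.26 the lowest and 5.09 the highest. Both were called (adjusted p = 1.84e-07 and 8.47e-07, limma over probe sets), and in both all 9 heme mice lay above all controls. Both passed the filter through their heme arrays alone and read the same gene in the same mice, so these calls are no separate support. The last, 1447727_at, stayed between 2.23 and 2.78 in all 15 mice and was not tested. Averaging all 4 probe sets gave a difference of 1.80, since the silent probe set and the dim one enter that mean.

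Aqp8, the colonocyte water channel, has 1 probe set (1417828_at). The control mice lay at 11.38, 12.23, 12.01, 10.99, 11.78 and 11.60 (control mice 1, 2, 3, 4, 6 and 7). The heme mice ran from 12.78 to 13.16 with a median of 12.98. All 9 heme mice lay above all 6 controls, and the heme mice spanned 0.382 against 1.24 in controls. The difference was 1.30 ± 0.14 on the log2 scale (SE), or 2.47-fold, with adjusted p = 3.11e-06 (limma). These levels are bright but under the brightest probe set of each array, which lay between 14.63 and 14.80.

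Aqp4, the basolateral water channel, was high in both groups at all 3 of its probe sets. At 1434449_at the control mice lay at 9.95, 11.45, 11.35, 9.04, 11.19 and 10.96 (control mice 1, 2, 3, 4, 6 and 7). The heme mice ran from 11.30 to 12.17 with a median of 11.67, and 8 of 9 lay above all controls. Control mice 1 and 4 were far under the other 4 controls, which spanned 10.96 to 11.45. The difference was 1.12 ± 0.31 (SE), or 2.18-fold, with adjusted p = 0.00592 (limma). The other probe sets gave 1.13 ± 0.27 (1425382_a_at) and 1.66 ± 0.38 (1447745_at), with adjusted p = 0.00251 and 0.00206 (limma over probe sets).

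**Figure D1:**
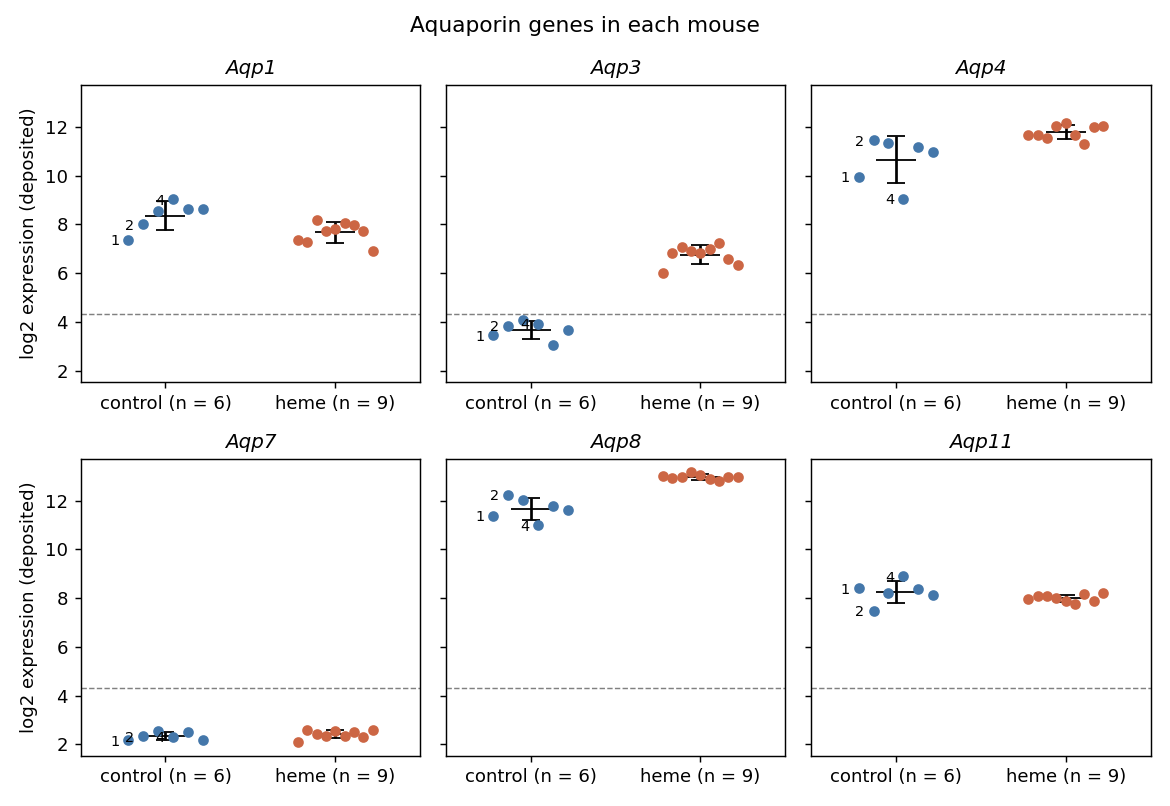
Log2 expression of the brightest probe set of each gene, 1 point per mouse, with the mean and SD of each group (6 control and 9 heme mice) as a bar. The dashed line is the signal floor at 4.32, and the digits name control mice 1, 2 and 4. Aqp3 is under the floor in all controls, Aqp8 does not overlap between groups, and Aqp7 is under the floor throughout.

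Control mice 1 and 4 also stood apart in genes that mark position along the colon, and these values belong beside Aqp4 and Aqp8. The mean of the distal Hox genes Hoxb13 and Hoxd13 was 2.76 in control mouse 4 and 7.73 in control mouse 1. The remaining 4 controls lay at 9.12 to 10.01 and the heme mice at 8.57 to 9.35. Of the 5 distal position genes on the array 2 were over the floor on enough arrays, and neither was called between groups. Of 5 proximal position genes only Hoxb6 was tested, and it fell by 0.90 ± 0.22 in heme mice (SE, adjusted p = 0.00320, limma), from 8.44 to 9.88 in controls and from 7.77 to 8.78 in heme mice. Control mice 4 and 1 were the highest in Hoxb6 at 9.88 and 9.66. Without control mice 1 and 4 the difference of Aqp4 was 0.54 (adjusted p = 0.00778, limma) and that of Aqp8 was 1.06 (adjusted p = 2.67e-06, limma). With Hoxb6 as a covariate Aqp4 was at 0.11 and no longer called (adjusted p = 0.756, limma), Aqp8 was at 0.89 (adjusted p = 3.33e-04, limma) and Aqp3 was at 2.97. With the mean of the distal genes as a covariate Aqp4 was at 0.87 and Aqp8 at 1.20, both called. Since Hoxb6 itself differed between the groups, the fit with it cannot tell diet from position.

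**Figure D2:**
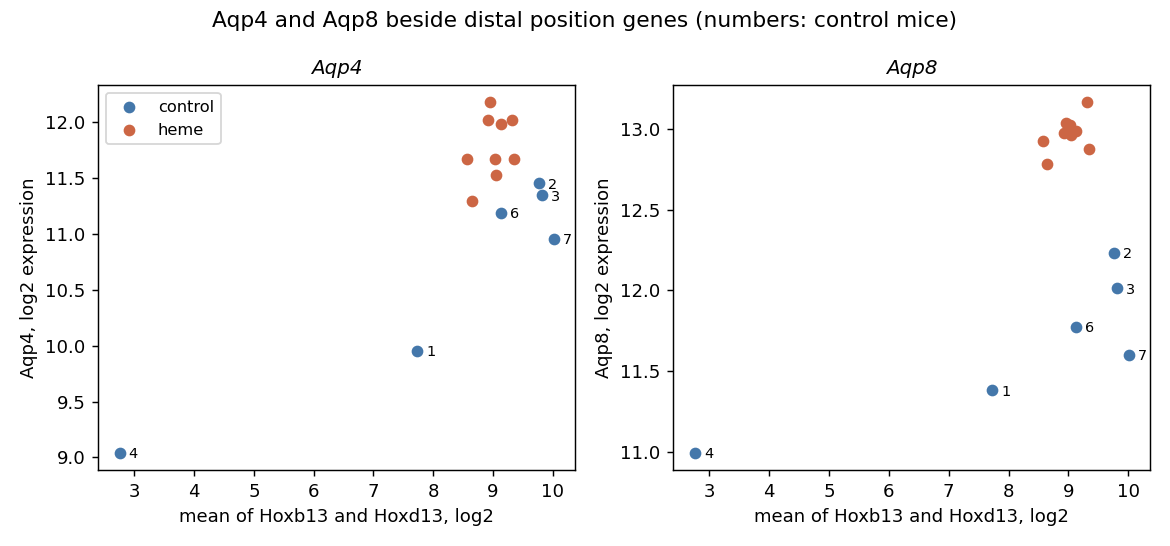
Aqp4 (left) and Aqp8 (right), log2 expression, against the mean log2 level of the distal position genes Hoxb13 and Hoxd13, with 1 point per mouse and the numbers of the control mice. Control mice 4 and 1 are lowest on both axes in both panels, and among mice with a position mean over 8 the heme mice lie above the controls in Aqp8 with no overlap, while in Aqp4 the lowest heme mouse (11.30) lies under control mice 2 and 3.

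Aqp4 and Aqp8 went together from mouse to mouse among the controls, while in heme mice their correlation did not pass after adjustment. In the 6 control mice both genes put the mice in the same order, with Pearson r = 0.945 (exact permutation p = 0.00139, adjusted p = 0.0222) and Spearman rho = 1.00 (exact permutation p = 0.00278, adjusted p = 0.0444). Without the 2 mice farthest from the median of Aqp4, which are control mice 1 and 4, r was 0.974 over 4 mice (exact permutation p = 0.0833, adjusted p = 0.267). In the 9 heme mice r was 0.740 (exact permutation p = 0.0207, adjusted p = 0.0944) and rho 0.800 (exact permutation p = 0.0138, adjusted p = 0.0738), and r was 0.544 over 7 mice without the 2 farthest. In all 16 pairs of members were compared within a group, 6 in controls and 10 in heme mice. The pair of Aqp4 and Aqp8 in controls was the one that passed on r after adjustment over the 16. Aqp1 and Aqp3 in heme mice passed on rho (0.850, exact permutation p = 0.00607, adjusted p = 0.0486) but not on r (0.750, exact permutation p = 0.0199, adjusted p = 0.0944), and r was 0.896 over 7 mice without the 2 farthest (exact permutation p = 0.00714, adjusted p = 0.114).

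Aqp1, the channel of red blood cells and endothelium, fell in heme mice. The control mice lay at 7.36, 8.01, 8.56, 9.03, 8.62 and 8.61 (control mice 1, 2, 3, 4, 6 and 7), and the heme mice ran from 6.89 to 8.20 with a median of 7.75. The groups overlapped, with 3 of 9 heme mice under all controls. On the log2 scale heme minus control was -0.70 ± 0.24 (SE), or 1.62-fold lower, with adjusted p = 0.0220 (limma). The call varied with the controls kept. Without control mouse 4, the highest in Aqp1, the difference was -0.56 and not called (adjusted p = 0.0580, limma). Without control mouse 1, the lowest control, it was -0.90 and called (adjusted p = 0.00229, limma). Without control mice 1 and 4 it was -0.78 and also called (adjusted p = 0.00746, limma). Without control mice 2 and 4 and heme mouse 6 it was -0.67, with an adjusted p just over the threshold of 0.05. With Hoxb6 as a covariate it was -0.76 and not called (adjusted p = 0.0972, limma).

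The cell types best known for Aqp1 left little signal in these scrapings. Of 7 endothelial markers, 4 (Pecam1, Cdh5, Kdr and Tek) were never over the floor and none was over it on enough arrays to be tested. Their summed linear signal was 41.1 to 137 in controls and 44.7 to 73.3 in heme mice. All 4 red blood cell markers on the array (Hba-a1, Alas2, Slc4a1 and Epb42) were under the floor in every mouse, with a summed signal of 22.3 to 25.7 in controls and 23.3 to 27.3 in heme mice. Smooth muscle markers, by contrast, were present and lower in heme mice. All 4 tested of 6 were called lower, where 26.4% of all tested genes were. Their mean was 7.58 ± 1.20 in controls (SD, 6.08 to 9.76) and 5.65 ± 0.59 in heme mice (SD, 4.88 to 6.62). With that mean as a covariate the differences were -1.08 for Aqp1, 1.93 for Aqp4, 1.73 for Aqp8, 2.87 for Aqp3 and -0.78 for Aqp11, all called. Since the smooth muscle mean itself differed between the groups, the fit with it cannot tell diet from muscle content. In such tissue samples fewer cells of a type and less RNA per cell cannot be told apart.

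Aqp11, the channel of the endoplasmic reticulum, was measured on all 15 arrays at 1429254_at. The control mice ran from 7.48 to 8.89 with a median of 8.30 and the heme mice from 7.75 to 8.20 with a median of 7.99, so every heme mouse lay within the range of the controls. The difference of -0.26 ± 0.15 (SE) was not called (adjusted p = 0.159, limma), with a 95% interval of -0.58 to 0.06. Control mouse 2 was the lowest control in Aqp11, and without it the difference was -0.41 and was called (adjusted p = 0.00537, limma). That mouse was the highest control in both smooth muscle markers (mean 9.76) and fibroblast markers (mean 9.82). Without control mouse 4, the highest control in Aqp11, the difference was -0.13, and without control mice 1 and 4 it was -0.06. With Hoxb6 as a covariate the sign turned, at 0.16. The second probe set, 1447606_x_at, lay near the floor (4.02 to 4.81) and gave -0.10 ± 0.11 (adjusted p = 0.434, limma over probe sets), and 1455846_at was under the floor in all mice.

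Aqp7, the glycerol channel of fat cells, lay under the floor in every mouse at both probe sets. 1418849_x_at ran from 2.17 to 2.53 in controls and from 2.09 to 2.59 in heme mice, and 1418848_at from 1.55 to 1.82 and from 1.62 to 2.08. No direction or fold can be read at such levels. Of 5 fat cell markers on the array 3 were tested, and the hormone genes Lep and Retn were under the floor in every mouse, in scrapings from which mesenteric fat had been removed. Adipoq, the fat cell hormone adiponectin, ran from 3.19 to 7.75 in controls and from 2.60 to 7.67 in heme mice, and Fabp4, the fat cell fatty acid binding protein, from 7.94 to 10.01 and from 6.63 to 10.43, neither called between groups. Adipoq was over the floor on 7 of the 15 arrays. The genes of Aqp3 and Aqp7 are direct neighbours on chromosome 4 in RefSeq's order. On the far side of Aqp3 lies Nol6, a nucleolar protein, at 0.20 ± 0.12 (SE, adjusted p = 0.177, limma), and on the far side of Aqp7 lies Nfx1, at -0.17 ± 0.07 (adjusted p = 0.0463, limma).

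**Figure D3:**
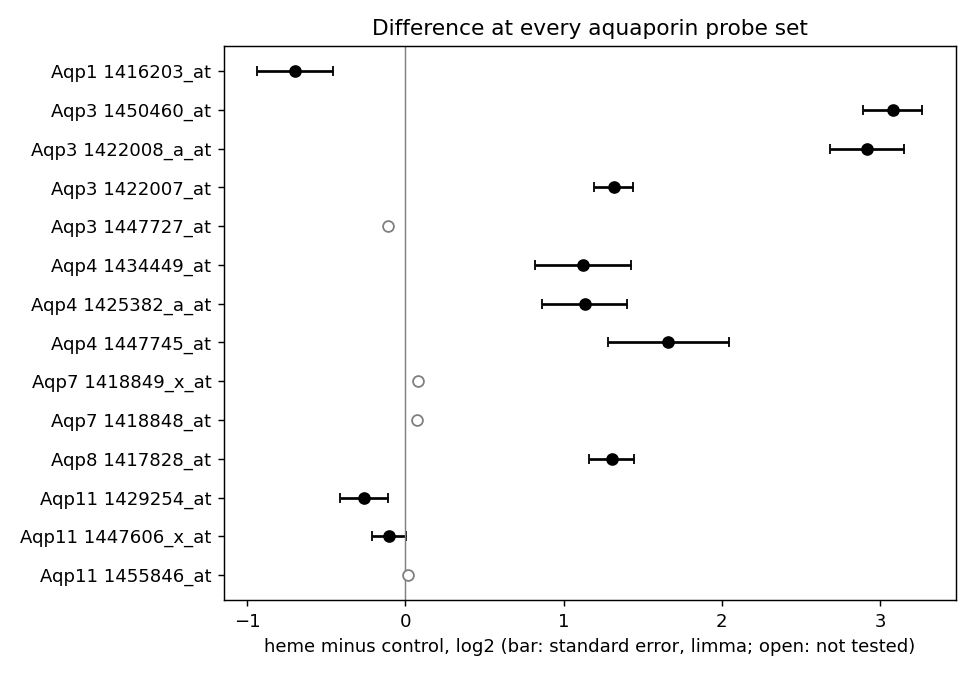
Difference of heme minus control on the log2 scale at each of the 14 aquaporin probe sets, with the limma standard error for the 10 that were tested (filled) and no error for the 4 that were never over the floor (open). The tested probe sets of Aqp3 and Aqp4 lie to the right of 0, that of Aqp1 to the left, and the tested probe sets of Aqp11 lie near 0.

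All other aquaporins were at background. Mip, Aqp2, Aqp5, Aqp6, Aqp9 and Aqp12 are on the array, and none of these 6 exceeded the floor in any mouse at its brightest probe set. Their summed linear signal was 29.1 to 32.0 in controls and 30.7 to 35.1 in heme mice. The epithelial markers Epcam, Cdh1, Krt8 and Krt19 had a mean of 13.60 ± 0.01 in controls and 13.59 ± 0.04 in heme mice (SD), but they did not all stay level. The adhesion molecule Epcam fell by 0.20 ± 0.04 (SE, adjusted p = 0.00125, limma) and the keratin Krt19 rose by 0.16 ± 0.05 (adjusted p = 0.0109, limma), both with no overlap between groups. Over all tested genes 11.2% lay apart as higher in heme mice and 8.93% as lower. Of 7 markers of absorptive colonocytes 3 rose and 2 fell, where 27.2% of all tested genes were called higher and 26.4% lower. Their median difference was 0.10, beside a median of -0.01 over all tested genes. Krt20, a keratin of mature colonocytes, rose by 0.39 ± 0.05 (SE, adjusted p = 2.81e-05, limma), while Car1, a carbonic anhydrase of the colon surface, was not called at 0.10 ± 0.05. Slc9a3 (0.80 ± 0.20) and Vil1 (0.18 ± 0.05) rose as well. Car4 (-0.33 ± 0.10, adjusted p = 0.0145, limma) and Ceacam1 (-0.18 ± 0.05, adjusted p = 0.00749, limma) fell, and Slc26a3 was not called (0.09 ± 0.13). Of 6 goblet cell markers 5 fell, beside the same 26.4% lower over all genes, with a median of -0.25. Enteric glia, the support cells of the gut's nerves, had all 4 markers on the array under the floor in every mouse, with a summed signal of 20.2 to 23.5 in controls and 21.1 to 26.0 in heme mice.

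The lists that follow are read beside the shares over all tested genes, of which 27.2% were called higher and 26.4% lower. Glycerol is the second cargo of Aqp3. The list set beside it holds mainly genes that make or split lipids built on glycerol. Glycerol kinase was listed but was not among the genes tested. Among the 13 tested genes of this list 9 rose and 0 fell, and 4 missed the threshold. Their median difference was 0.60, beside -0.01 over all tested genes. Angptl4, a secreted inhibitor of lipoprotein lipase, rose from 5.82 ± 0.90 to 8.66 ± 0.37 (SD, n = 6 and 9), a difference of 2.84 ± 0.30 (SE, adjusted p = 2.58e-06, limma). Mgll, the lipase that frees glycerol from monoglycerides, rose by 1.63 ± 0.15, and Gpat3, which acylates glycerol 3-phosphate, by 1.30 ± 0.16. In all 3, which were named for the size of their change, the groups did not overlap, as for 11.2% of all tested genes in that direction. The mitochondrial acyltransferase Gpam (0.10 ± 0.11) and the triglyceride lipase Pnpla2 (0.13 ± 0.08) were not called. Cidec, a lipid droplet protein listed among the fat cell markers, differed by 2.86 ± 0.28 (adjusted p = 1.14e-06, limma), whereas Adipoq and Fabp4 of the same list were not called. The part of fat cells in these values was not tested.

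Salt transport sets the gradient that water follows. Among 23 tested genes of salt and water transport 10 fell and 1 rose, and 12 missed the threshold, beside 53.6% called over all genes. Their median difference was -0.16. The sodium bicarbonate cotransporter Slc4a4 fell by 1.19 ± 0.14 (SE, adjusted p = 8.25e-06, limma), the potassium channel Kcnq1 by 1.05 ± 0.13 and the monocarboxylate transporter Slc5a8 by 0.97 ± 0.15. The gene that rose was the apical sodium-proton exchanger Slc9a3, from 10.02 ± 0.46 to 10.83 ± 0.36 (SD), a difference of 0.80 ± 0.20 (adjusted p = 0.00290, limma). It was not called with the smooth muscle mean as a covariate, when 0 genes of the list were called higher. The ubiquitin ligase Nedd4l (-0.02 ± 0.07) and the scaffold Slc9a3r1 (0.04 ± 0.06) were not called.

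Osmolyte uptake and cell volume were covered by 10 tested genes, of which 6 rose and 2 fell, beside 27.2% higher and 26.4% lower over all genes. Their median difference was 0.36. Lrrc8e, a subunit of the volume-regulated anion channel, rose by 0.82 ± 0.15 (SE, adjusted p = 2.51e-04, limma), the myo-inositol transporter Slc5a3 by 0.71 ± 0.22 and the kinase Stk39 by 0.58 ± 0.11. The 2 that fell were Nfat5, the transcription factor that answers to hypertonic stress (-0.57 ± 0.10), and the kinase Wnk1 (-0.25 ± 0.07). The taurine transporter Slc6a6 (0.06 ± 0.10) and the obligatory anion channel subunit Lrrc8a (0.10 ± 0.06) were not called. With the smooth muscle mean as a covariate 5 genes of this list were called.

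Hydrogen peroxide, which Aqp3 and Aqp8 can pass, is made or removed by 13 tested genes, of which 9 rose and 1 fell, beside the same 27.2% and 26.4%. Their median difference was 0.29. Of the 23 genes listed 17 were matched to a probe set with 1 symbol. The oxidase genes Nox1 and Duox2 were listed but were not among the genes tested. Catalase (Cat) rose from 11.50 ± 0.35 to 12.65 ± 0.25 (SD, n = 6 and 9), a difference of 1.15 ± 0.14 (SE, adjusted p = 1.15e-05, limma). The glutathione peroxidase Gpx2 rose by 0.84 ± 0.13 and the thioredoxin reductase Txnrd1 by 0.81 ± 0.07. These 3 were named for the size of their change, and in each the groups did not overlap, as for 11.2% of all tested genes in that direction. The gene that fell was Cyba, a subunit of NADPH oxidases (-0.23 ± 0.07). With the replicate block, with the smooth muscle covariate, and without control mice 2 and 4 and heme mouse 6, 0 genes of this list were called lower. Prdx2 (0.06 ± 0.06) and Gpx1 (-0.06 ± 0.06), both peroxide reductases, were not called.

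Transcription factors and nuclear receptors of the colonocyte numbered 13 tested genes, of which 8 fell and 0 rose, where 26.4% of all genes fell and 27.2% rose. Their median difference was -0.33. The mineralocorticoid receptor Nr3c2, which drives salt absorption in the distal colon and is also in the salt list, fell from 10.57 ± 0.16 to 9.98 ± 0.08 (SD), a difference of -0.59 ± 0.07 (SE, adjusted p = 3.94e-06, limma). Ppara, a receptor of fatty acids, was at -0.59 ± 0.22 (adjusted p = 0.0309, limma) and Klf5, a factor of crypt cells, at -0.56 ± 0.06. Klf4, a factor of mature colonocytes (0.08 ± 0.06), and the intestinal homeobox factor Cdx1 (-0.14 ± 0.07) were not called. With probe sets averaged 5 of these factors were called, and with Hoxb6 as a covariate 4.

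**Figure D4:**
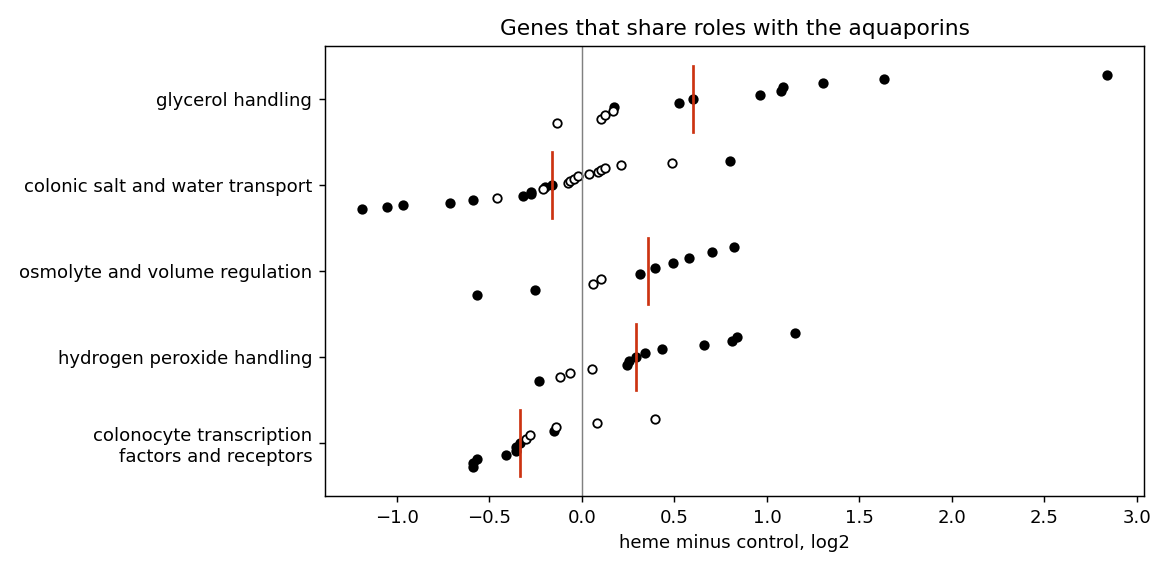
Difference of heme minus control on the log2 scale for each tested gene of the 5 lists with tested members, 1 point per gene, filled where called (adjusted p under 0.05) and open where not, with the median of each list as a red line. Genes of the glycerol and peroxide lists lie mostly to the right of 0 (medians 0.60 and 0.29), salt transport genes and colonocyte factors mostly to the left (medians -0.16 and -0.33).

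To see which genes followed each aquaporin from mouse to mouse, the deviations from the group means were compared over all 15 arrays. Because the genes were chosen for this likeness, it is given as Pearson's r with no p. Aqp4 was most like the phosphate transporter Slc20a1 (likeness 0.966), the ketone body enzyme Oxct1 (0.960) and Nxpe2 (0.958). Between diets Slc20a1 went the other way from Aqp4, with a difference of -0.77 ± 0.17 (SE, adjusted p = 0.00120, limma). Oxct1 also went the other way (-0.30 ± 0.11, adjusted p = 0.0267, limma), and Nxpe2 was not called (-0.39 ± 0.19). Aqp8 was most like the folate enzyme Aldh1l1 (0.951), the actin-severing protein gelsolin, Gsn (0.942), and the mucosal chemokine Ccl28 (0.940), and none of these 3 was called between diets. For Aqp3 they were Acacb, the acetyl-CoA carboxylase of mitochondria (0.835), Vps33a (0.733) and Cyba (0.728), and Acacb differed between diets by 2.81 ± 0.21 (adjusted p = 6.44e-08, limma) beside the change of Aqp3. The controls of Aqp3 lie under the floor, so 6 of its 15 deviations are background, and over the 9 heme mice alone the likeness was 0.843, 0.803 and 0.611.

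For Aqp1 the most like genes were the retinal reductase Dhrs4 (0.910), the mitochondrial carboxykinase Pck2 (0.854) and Tmtc2 (0.854). For Aqp11 they were Etfa, an electron carrier of fatty acid oxidation (0.944), the mitochondrial iron-sulfur protein Cisd1 (0.937) and malic enzyme Me1 (0.932). Control mice 2 and 4 and heme mouse 6 carry much of this for Aqp11, since over the other 12 arrays its likeness to these genes was 0.489, 0.455 and 0.692. Between diets Dhrs4 (0.83 ± 0.12, SE) and Tmtc2 (0.75 ± 0.24) were called higher, the other way from Aqp1, and Pck2 was not called (0.03 ± 0.07). Etfa (0.41 ± 0.08), Cisd1 (0.60 ± 0.07) and Me1 (3.58 ± 0.32) were also called higher, while Aqp11 itself was not called (-0.26 ± 0.15). Control mice 1 and 4, far under the other controls in Aqp4, carry part of the likeness of Aqp4 and Aqp8. Over the 13 arrays without them it was 0.876, 0.825 and 0.841 for Aqp4 and 0.827, 0.859 and 0.808 for Aqp8. Over the 9 heme mice alone it was 0.859, 0.859 and 0.808 for Aqp4 and 0.852, 0.652 and 0.622 for Aqp8. The heme mice alone gave 0.870, 0.812 and 0.927 for Aqp1 and 0.607, 0.665 and 0.803 for Aqp11. Leaving out control mice 1 and 4 and taking the heme mice alone were choices made after seeing the data.

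**Figure D5:**
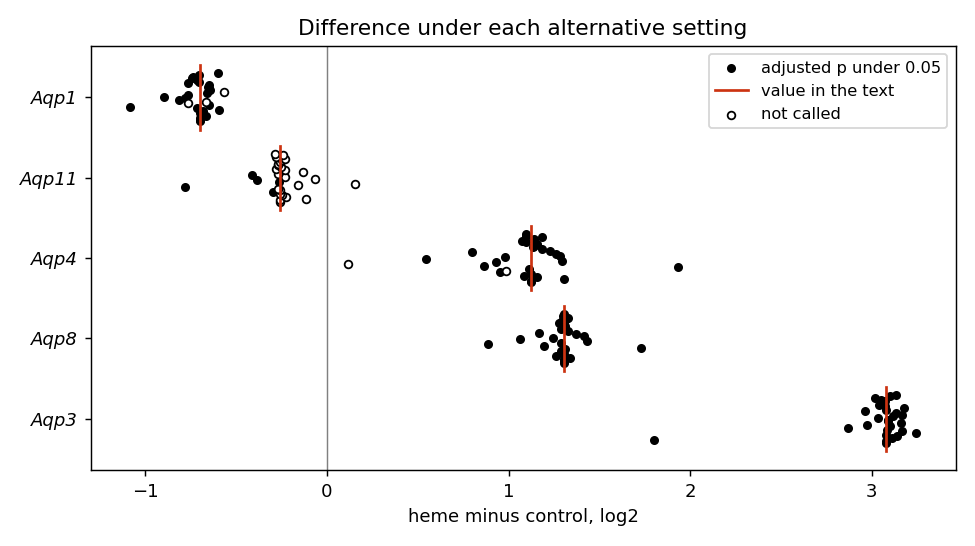
Difference of heme minus control on the log2 scale for the 5 tested aquaporins under each of 30 alternative settings, 1 point per setting, filled where called (adjusted p under 0.05), with the value given in the text as a red line. Aqp3 (1.80 to 3.24) and Aqp8 (0.89 to 1.73) are filled under all 30, Aqp4 ranges from 0.11 to 1.93, and Aqp11 crosses 0.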

How the data were processed

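Colon scrapings of 15 mice were measured with 1 Affymetrix array each. The authors deposited log2 values, 1 for each probe set, made with GCRMA 2.22.0 per the submitters' processing notes. No detection calls came with them, so a signal floor of 20 was set. GCRMA compresses dim signals, and with so few arrays precision is limited by their number. The array has 45101 probe sets, 34958 with 1 gene symbol, 932 with several and 9211 with none in the annotation used. A gene was its probe set with the highest mean. The 9257 genes over the floor on at least 6 arrays were compared between heme (9) and control (6) mice with limma 3.58.1 in R 4.3.3, with Benjamini-Hochberg adjustment. A second fit took the 15717 probe sets over the floor. Differences are heme minus control with their standard error. The procedure was tested on simulated data.

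The members, the gene lists and the tests were chosen with earlier results of these data known. From each list the text names up to 3 called genes with the largest change, up to 2 that were not called with the smallest, single exceptions, marker genes chosen after their values were seen, and for each member the 3 genes most like it. Lists of fibroblast, lymphocyte and macrophage markers were also read: 0 of 5 tested fibroblast genes, 1 of 1 lymphocyte gene (Gzma, lower) and 0 of 2 macrophage genes were called. Control replicate 5 was not analysed here.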

Additional observations from a re-analysis of the deposited data

Results flagged for a closer look

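Among 17 sets of values (10 tested probe sets by group, without groups that lie wholly under the floor), 1 held a mouse far from the rest of its group. At the dim Aqp3 probe set 1422007_at heme mouse 7 lay at 5.09, against at most 4.59 in the other heme mice. Chance gives about 1 such set in 20, so 1 among 17 is near the chance level. The same mouse was also the highest of the heme group at the other Aqp3 probe sets over the floor, with 7.24 at 1450460_at and 6.13 at 1422008_a_at. These probe sets read the same gene in the same mouse and are no separate support.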

How the results depend on the processing

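Under 30 alternatives, 2 of them chosen after seeing the data (leaving out control mice 1 and 4, and a Hoxb6 covariate), Aqp3 and Aqp8 stayed higher and called, at adjusted p up to 6.10e-05 and 0.00192 (limma). The calls over all genes ranged from 3504 to 5663. Aqp1 lost its call without control mice 2 and 4 and heme mouse 6 (-0.67), with the Hoxb6 covariate (-0.76) and without control mouse 4, with a range of -0.90 to -0.56 as mice were left out singly. Aqp4 lost it with the Hoxb6 covariate (0.11) and with the replicate block (0.98, adjusted p = 0.0712, limma), and ran from 0.80 to 1.28 as mice were left out singly. Aqp11 gained a call with array weights (-0.30), the smooth muscle covariate (-0.78), without control mice 2 and 4 and heme mouse 6 (-0.26), without control mouse 2 and heme mouse 6 (-0.38) and without control mouse 2 (range -0.41 to -0.13 as mice were left out), and reversed to 0.16 with the Hoxb6 covariate. Calls among colonocyte factors numbered 5 with probe sets averaged and 4 with the Hoxb6 covariate, against 8, and osmolyte genes 5 with the smooth muscle covariate, against 8. The correlation of Aqp4 and Aqp8 in controls was 0.974 over 4 mice and could not pass at that number (adjusted p = 0.267, exact permutation test). The causes were not tested. No pairing by replicate number was seen over all tested genes: the deviations of same-numbered mice correlated between -0.19 and 0.20 over 6 numbers. Such values cannot exclude a pairing that touches few genes. The block changed no other call of the 5 tested aquaporins.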
